A study of Mus musculus with 20 samples.

Results

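The transcripts followed here are Fam107a and 8 other genes of the glucocorticoid response: Fkbp5, Zbtb16, Per1, Sgk1, Tsc22d3, Ddit4, Pdk4 and the receptor gene Nr3c1. They were taken by gene name from the deposited expression table, which gave 9 genes out of 45700, and all of them passed the filter on low values. Fam107a was chosen by its log2 fold changes between brains of mice with spinal muscular atrophy (SMA) and control brains, and the other genes were chosen to see whether its rise was shared. The SMA values of Fam107a are therefore given as a description with no test. The other 8 genes and the lists below were chosen with earlier results of these data known. Their counts beside the shares of all tested genes are thus not an independent test. RNA was sequenced from whole brains, with a library of total cytoplasmic RNA (RNA-seq) and a library of RNA from the polysomal part of a sucrose gradient (POL-seq) for each of 10 replicates, 20 libraries in all; the labels do not say whether both libraries of a replicate came from the same brain. SMA mice were of the “Taiwanese” model (Smn-/-; SMN2tg/0), which lacks murine Smn and carries human SMN2, and the controls were heterozygous littermates (Smn-/+; SMN2tg/0), so both genotypes carried the human transgene on a congenic FVB background. Each genotype had 2 replicates taken on postnatal day 5, called early-symptomatic, and 3 taken on day 7, called late-symptomatic. From Xist and Ddx3y, which gave the same sex in both libraries of each replicate, both early-symptomatic controls were male, the early-symptomatic SMA mice were 1 female and 1 male, the late-symptomatic controls 2 females and 1 male, and the late-symptomatic SMA mice 2 males and 1 female.

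Glucocorticoids such as corticosterone enter cells and bind the glucocorticoid receptor, which is held in the cytoplasm by Hsp90 and its co-chaperones. The bound receptor moves to the nucleus and acts as a transcription factor, often at a pair of inverted recognition sequences separated by a short spacer. Genes that it induces in brain include its own inhibitor Fkbp5, kinases and kinase inhibitors, transcription factors and metallothioneins, and many of them are strongly expressed in astrocytes and endothelial cells. Fam107a, also called DRR1, encodes an actin-binding protein that is induced by stress and glucocorticoids and is found in astrocytes and radial glia.

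Values are FPKM, fragments scaled to the length of exons and to the mapped fragments of the library, so levels can be compared between genes per length. Fold changes are differences of log2(FPKM + 0.1) fitted with limma, in 15247 genes whose mean over all libraries reached 1 FPKM. A gene was called at an unadjusted p under 0.05. The p-values printed are adjusted by the Benjamini-Hochberg method over all tested genes, and most calls do not survive this adjustment. The table holds no counts, so the depth behind a single value is unknown. In whole brain, fewer cells of a type and less RNA per cell cannot be told apart.

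Fam107a (ENSMUSG00000021750.13, chr14:8296274-8318023, GRCm38) was at 1.44 and 1.36 FPKM in total RNA of the early-symptomatic controls and at 6.37 and 7.18 FPKM in that of the SMA mice. In polysomal RNA of the same stage it was at 1.08 and 2.68 FPKM in controls and at 5.82 and 9.34 FPKM in SMA mice. The lowest SMA library thus held more than the highest control library in both fractions. In late-symptomatic total RNA the controls were at 4.07, 3.99 and 3.15 FPKM and the SMA mice at 16.7, 11.1 and 10.6 FPKM. In late-symptomatic polysomal RNA they were at 3.91, 3.51 and 2.74 FPKM and at 21.6, 9.85 and 10.7 FPKM. The genotypes did not overlap in any of the 4 comparisons, and SMA replicate 1 stood above the other 2 late-symptomatic SMA mice in both fractions. Log2 fold changes were 2.19 (SE 0.13) in early-symptomatic total RNA, 2.05 (SE 0.56) in early-symptomatic polysomal RNA, 1.73 (SE 0.22) in late-symptomatic total RNA and 1.94 (SE 0.34) in late-symptomatic polysomal RNA. On leaving out 1 library the early-symptomatic polysomal change ranged from 1.43 to 2.66. By the smallest of the 4 changes Fam107a ranked 4 of the 15247 tested genes. Since it was chosen by such changes, this rank is a description only. Of the genes tested, 1.17% were higher without overlap in all 4 comparisons and 1.07% were lower.

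A sequence match was looked for in the region around the annotated starts of the 9 genes, 250 bases before to 50 bases after each start, in RefSeq windows of GRCm38.p6. The full palindrome searched was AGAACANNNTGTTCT, and the looser core contained in it was GNACANNNTGTNC; both read the same on either strand. Windows were present for 7 of the 9 genes, and Zbtb16 and Nr3c1 had none. Fam107a and Sgk1 held the core, and Sgk1 also held the palindrome. The 7 genes had 17 windows in all, 6 of them of Sgk1 and 3 of Fam107a. These genes thus had more chances of a match than a gene with 1 window. Over all 32851 windows the core was present in 0.475% and the palindrome in 0.00913%, and of all 27025 genes with a window 0.537% held the core and 0.0111% the palindrome. Of 26 genes with windows in a wider list of induced genes that is described below, 2 held the core (Mt1 and Map3k6) and 0 the palindrome. The match of Map3k6, 175 bases before the start, is not shown, and this gene was not tested (mean 0.979 FPKM). The matches of Fam107a, Sgk1 and the metallothionein gene Mt1 are shown with the core in capitals. They place the letters that the receptor is known to recognise near the start of genes described in the text.
Fam107a (chr14:8309855-8309927, minus strand, core 112 bases before the start): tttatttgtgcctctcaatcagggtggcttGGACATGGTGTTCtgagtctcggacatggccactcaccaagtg
Sgk1 (chr10:21993672-21993744, plus strand, core 182 bases before the start): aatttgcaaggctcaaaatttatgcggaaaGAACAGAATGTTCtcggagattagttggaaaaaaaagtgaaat
Mt1 (chr8:94178965-94179037, plus strand, core 88 bases before the start): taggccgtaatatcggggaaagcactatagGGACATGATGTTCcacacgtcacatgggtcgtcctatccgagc
The Fam107a match lay in an intron of 1 annotated transcript and outside the other 3, and the Sgk1 match in an intron of 5 and outside 8. The Mt1 match lay outside all 3 annotated transcripts. A match to these letters is a description of the window and not a measured binding site.

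**Figure D1:**
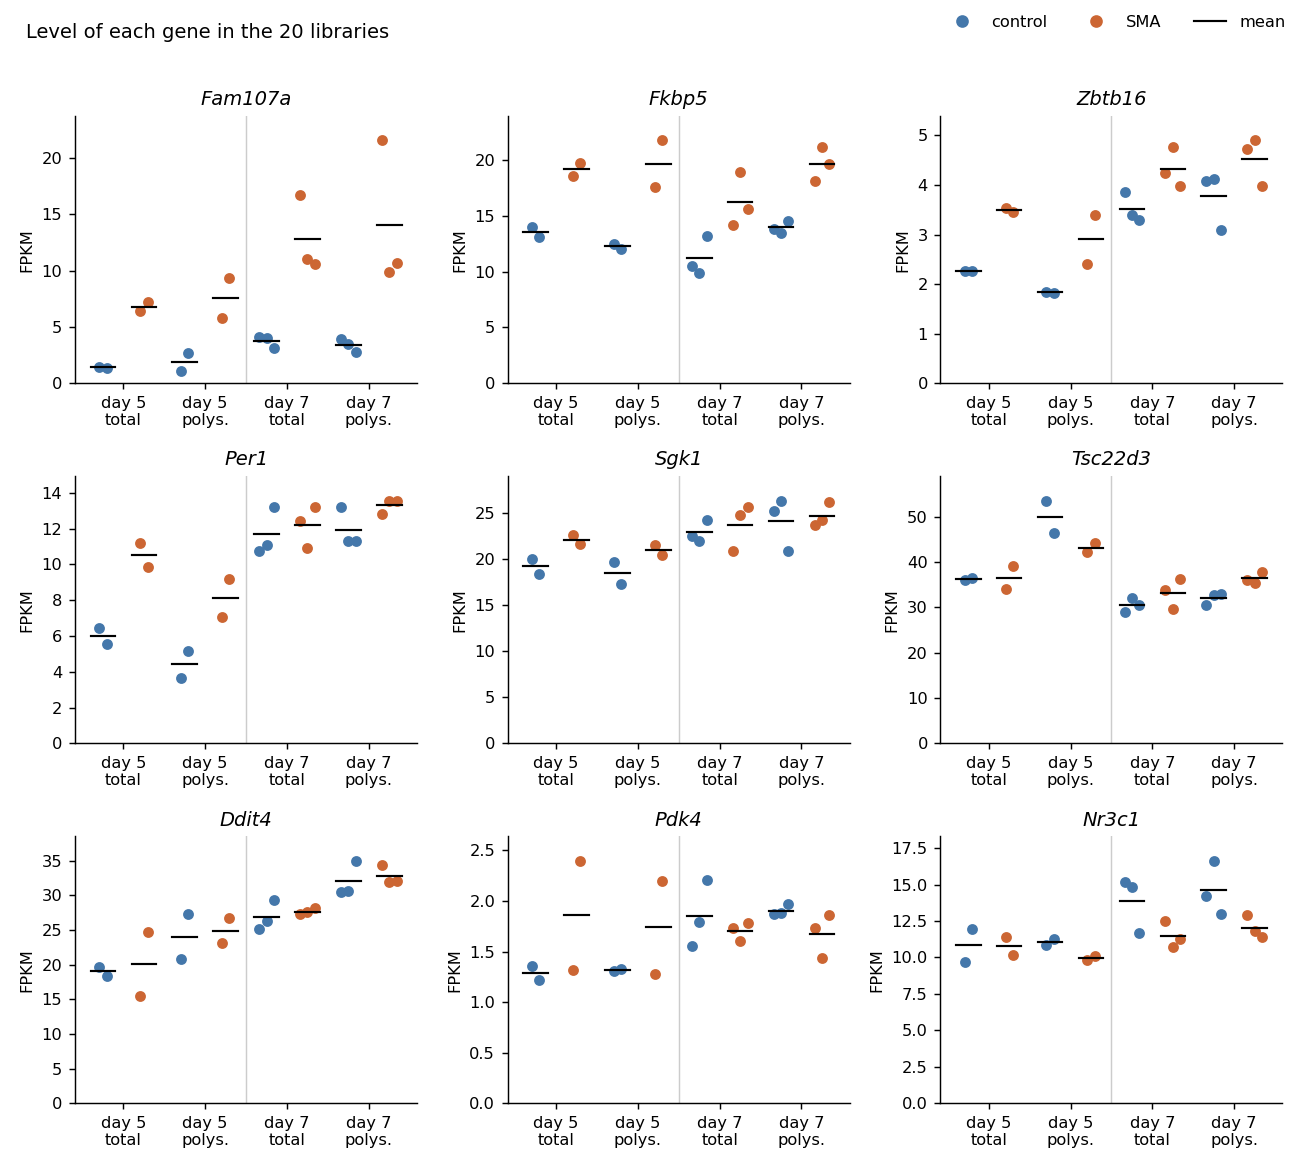
FPKM of each of the 9 genes (y axis, from 0, a scale of its own for each gene) in the 20 libraries by stage and fraction (x axis); blue points are control libraries, orange points SMA libraries, and black lines group means. The genotypes are apart in all 4 stage and fraction groups for Fam107a and Fkbp5, while those of Ddit4 overlap in each.

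Among the 8 other genes, Fkbp5, Zbtb16 and Per1 were called higher in SMA brains over both stages and Sgk1, Tsc22d3, Ddit4 and Pdk4 were not called. With stage in the model and 5 mice per genotype, 3 of the 8 were called higher and 0 lower in total RNA, where 6.95% of all tested genes were called higher and 6.36% lower. In polysomal RNA 3 were called higher and 1 (Nr3c1) lower, where the shares of all tested genes were 7.88% and 8.3%. Log2 fold changes of the 8 genes had a median of 0.11 in total RNA and 0.07 in polysomal RNA.

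**Figure D2:**
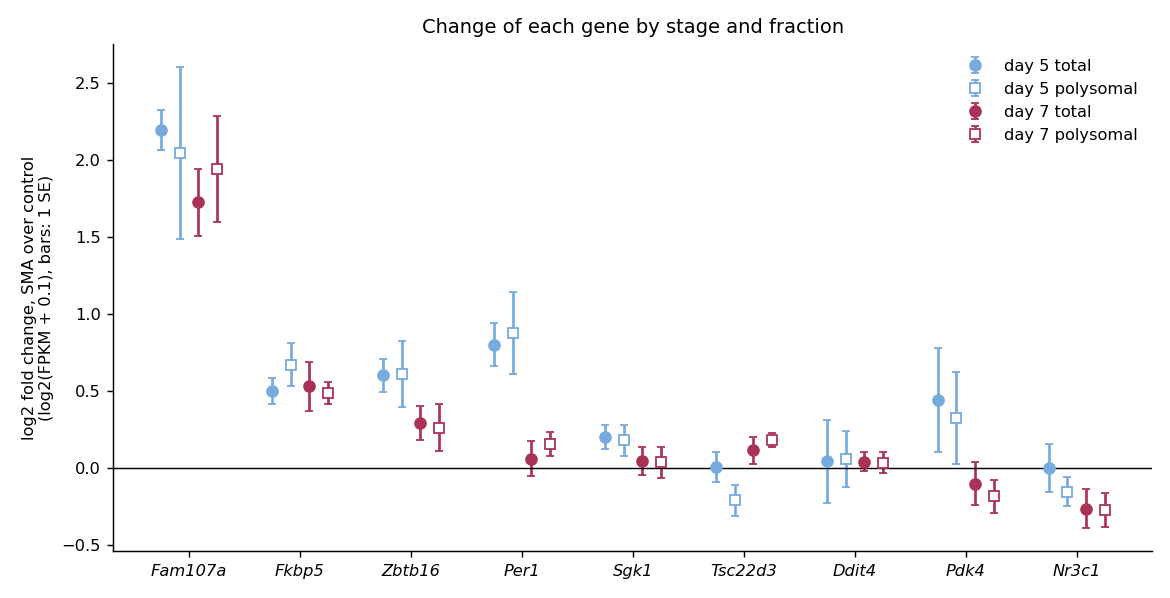
Log2 fold change of SMA over control (y axis, on log2(FPKM + 0.1), bars 1 SE) for each gene (x axis); blue marks day 5 and red day 7, filled circles total RNA and open squares polysomal RNA. Fam107a lies at 1.73 or above in all 4 comparisons, Fkbp5 between 0.49 and 0.67, and Per1 is higher at day 5 than at day 7.

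Fkbp5 encodes FKBP51, a co-chaperone of Hsp90 that lowers the hormone affinity of the receptor and is itself induced by it. In early-symptomatic total RNA it was at 14.01 and 13.1 FPKM in controls and at 18.6 and 19.8 FPKM in SMA mice. In early-symptomatic polysomal RNA it was at 12.5 and 12.1 FPKM in controls and at 17.6 and 21.8 FPKM in SMA mice. The genotypes were apart in both fractions, and they remained so 2 days later. At day 7, total RNA held 10.5, 9.86 and 13.2 FPKM in controls and 14.2, 19.0 and 15.6 FPKM in SMA mice. Late-symptomatic polysomal RNA held 13.9, 13.5 and 14.6 FPKM in controls and 18.1, 21.2 and 19.7 FPKM in SMA mice. Fkbp5 was thus the only one of the 8 genes whose genotypes did not overlap in any of the 4 comparisons. Over both stages it rose by 0.52 on the log2 scale in total RNA (SE 0.10, adjusted p = 0.0712) and by 0.56 in polysomal RNA (SE 0.07, adjusted p = 0.0222), and both calls held in each of 22 alternative settings. Within single comparisons the changes were 0.50, 0.67, 0.53 and 0.49 for early total, early polysomal, late total and late polysomal RNA, all called, with adjusted p-values of 0.551, 0.381, 0.417 and 0.168. Leaving out an early-symptomatic library leaves 1 library in its group, which is then assumed to vary like the 2 of the other genotype. The early-symptomatic calls ended without control replicate 1 or 2, where the changes were 0.55 and 0.45 in total RNA and 0.70 and 0.64 in polysomal RNA. The late-symptomatic call in total RNA ended without control replicate 1 or 2 or SMA replicate 2, at changes of 0.49, 0.45 and 0.42.

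Zbtb16, the gene of the zinc-finger repressor PLZF, was expressed at a low level. In early-symptomatic total RNA it was at 2.26 and 2.27 FPKM in controls and at 3.53 and 3.45 FPKM in SMA mice. In early-symptomatic polysomal RNA it was at 1.85 and 1.83 FPKM in controls and at 2.41 and 3.40 FPKM in SMA mice. Both fractions were higher in both SMA mice. At the late-symptomatic stage total RNA held 3.85, 3.40 and 3.29 FPKM in controls and 4.25, 4.77 and 3.97 FPKM in SMA mice. Polysomal RNA held 4.09, 4.13 and 3.10 FPKM in controls and 4.72, 4.90 and 3.97 FPKM in SMA mice. The late-symptomatic polysomal libraries were the single comparison in which the genotypes overlapped. Over both stages Zbtb16 rose by 0.42 in total RNA (SE 0.09, adjusted p = 0.0933) and by 0.40 in polysomal RNA (SE 0.14, adjusted p = 0.221), called in each of 22 alternative settings. Within stages it was called in total RNA only, at day 5 (0.60, SE 0.11, adjusted p = 0.551) and day 7 (0.29, SE 0.11, adjusted p = 0.498). The day 5 call ended without control replicate 1 (change 0.60) or 2 (0.61). The day 7 call ended without control replicate 2 or 3 or SMA replicate 1 or 2, at changes of 0.27, 0.25, 0.30 and 0.22. It also ended with the replicate block, alone (0.29) or with the length correction (0.30).

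Per1, a repressor of the circadian clock that the receptor also induces, differed between stages. In early-symptomatic total RNA it was at 6.42 and 5.56 FPKM in controls and at 11.2 and 9.85 FPKM in SMA mice. In early-symptomatic polysomal RNA it was at 3.63 and 5.18 FPKM in controls and at 7.05 and 9.20 FPKM in SMA mice. At day 5 the genotypes were apart in both fractions. At day 7 total RNA held 10.8, 11.1 and 13.2 FPKM in controls and 12.4, 10.9 and 13.2 FPKM in SMA mice. Polysomal RNA held 13.2, 11.3 and 11.3 FPKM in controls and 12.8, 13.6 and 13.6 FPKM in SMA mice. At day 7 the genotypes overlapped in both fractions. The early-symptomatic SMA levels overlapped those of the day 7 controls in total RNA and lay below them in polysomal RNA. Per1 rose at day 5 by 0.80 in total RNA (SE 0.14, adjusted p = 0.551) and by 0.88 in polysomal RNA (SE 0.27, adjusted p = 0.393), against changes of 0.06 (SE 0.11) and 0.16 (SE 0.08) at day 7 that were not called. The difference between the stages was itself called, at -0.74 in total RNA (SE 0.18, adjusted p = 0.486) and at -0.72 in polysomal RNA (SE 0.24, adjusted p = 0.322). Without early-symptomatic control replicate 1 or SMA replicate 2 the polysomal difference was not called, at -0.47 and -0.53. The day 5 call ended without control replicate 2 in total RNA (change 0.70) and without control replicate 1, SMA replicate 1 or SMA replicate 2 in polysomal RNA (0.63, 1.07 and 0.69), where it also ended with no filter beyond detection in a library. Over both stages the change was 0.36 in total RNA (adjusted p = 0.359), called in 12 of 22 alternative settings, and 0.45 in polysomal RNA (adjusted p = 0.253). The call in total RNA ended on leaving out any of the 4 early-symptomatic libraries (0.26 to 0.32). Leaving out late-symptomatic control replicate 1 or 2 (0.37 and 0.38) or late-symptomatic SMA replicate 1 or 3 (0.39 and 0.37) also ended it. So did the replicate block, alone (0.36) or with the length correction (0.33). The call in polysomal RNA ended without early-symptomatic SMA replicate 1 (0.44) or 2 (0.32).

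Sgk1, a kinase that regulates ion channels and transporters, held one of the higher levels of the group and was not called in any comparison of the genotypes. It was at 19.9 and 18.4 FPKM in early-symptomatic control total RNA against 22.5 and 21.6 FPKM in SMA mice, and at 19.7 and 17.3 against 21.5 and 20.4 FPKM in polysomal RNA. Late-symptomatic controls lay between 21.9 and 24.2 FPKM in total RNA and SMA mice between 20.8 and 25.6 FPKM, and the polysomal ranges were 20.9 to 26.3 and 23.6 to 26.2 FPKM. Its log2 fold changes were 0.20 and 0.18 at day 5, where the genotypes were apart, and 0.05 and 0.04 at day 7, where they overlapped. Being apart was frequent at day 5, with 2 libraries per genotype. In early-symptomatic total RNA 5 of 13 tested genes of receptor function were apart upward and 3 downward. Over both stages the 95% confidence interval was -0.05 to 0.27 in total RNA, so a rise of the size seen for Fkbp5 lay outside it.

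Tsc22d3, which encodes the anti-inflammatory leucine zipper protein GILZ, had the highest level of the 9 genes in early-symptomatic control total RNA. It was at 36.0 and 36.6 FPKM there against 34.0 and 39.1 FPKM in SMA mice. In polysomal RNA of this stage the order was the reverse of that of Fkbp5, with 53.5 and 46.4 FPKM in controls and 42.1 and 44.2 FPKM in SMA mice (log2 fold change -0.21, SE 0.10, not called). In late-symptomatic polysomal RNA controls were at 30.6, 32.7 and 32.8 FPKM and SMA mice at 35.9, 35.4 and 37.9 FPKM, a rise of 0.18 (SE 0.05, adjusted p = 0.302). The late-symptomatic total libraries overlapped, at 29.0, 32.1 and 30.6 FPKM in controls and 33.8, 29.5 and 36.3 FPKM in SMA mice. The change in polysomal RNA differed between the stages by 0.39 (SE 0.10, adjusted p = 0.261), and this call held in each of 21 alternative settings.

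Ddit4 encodes REDD1, an inhibitor of mTORC1 signalling, and Pdk4 a kinase that turns off pyruvate dehydrogenase during fasting. Ddit4 changed by between 0.04 and 0.06 in the 4 comparisons and the genotypes overlapped in each. In early-symptomatic total RNA it was at 19.8 and 18.4 FPKM in controls and at 15.6 and 24.8 FPKM in SMA mice, and at day 7 it was between 25.1 and 29.3 FPKM in controls and between 27.3 and 28.2 FPKM in SMA mice. Pdk4 was at 1.36 and 1.22 FPKM in early-symptomatic control total RNA and at 1.32 and 2.4 FPKM in SMA mice, and in polysomal RNA at 1.31 and 1.33 against 1.28 and 2.2 FPKM. The high value of both genes came from early-symptomatic SMA replicate 2, the male of that group. With SMA replicate 1 left out, where the spread comes from the 2 controls alone, Pdk4 would be called at day 5 (log2 fold change 0.85 in total and 0.70 in polysomal RNA) and Ddit4 in total RNA (0.38). At day 7 Pdk4 was between 1.56 and 2.21 FPKM in controls and between 1.61 and 1.78 FPKM in SMA mice of the total libraries, with log2 fold changes of -0.10 in total and -0.18 in polysomal RNA.

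Nr3c1, the glucocorticoid receptor gene, was on the lower side in polysomal RNA of SMA brains. Early-symptomatic total RNA held 9.70 and 11.95 FPKM in controls against 11.4 and 10.1 FPKM in SMA brains, and polysomal RNA 10.9 and 11.3 against 9.81 and 10.1 FPKM. Late-symptomatic total RNA held 15.2, 14.8 and 11.7 FPKM in controls and 12.5, 10.7 and 11.3 FPKM in SMA mice. Late-symptomatic polysomal RNA held 14.2, 16.6 and 13.0 FPKM in controls and 12.9, 11.8 and 11.4 FPKM in SMA mice. The genotypes were thus apart in polysomal RNA at both stages and overlapped in total RNA. Over both stages Nr3c1 fell by 0.22 in polysomal RNA (SE 0.07, adjusted p = 0.206), called in each of 22 alternative settings, and its change in total RNA was -0.16 (SE 0.10, not called).

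By single stage and fraction, 3 of the 8 genes were called higher and 0 lower in early-symptomatic total RNA (Fkbp5, Zbtb16 and Per1), where 4.36% of all tested genes were called higher and 3.89% lower. In late-symptomatic total RNA 2 were called higher (Fkbp5 and Zbtb16) and 0 lower, beside 4.84% and 4.7% of all genes. In early-symptomatic polysomal RNA 2 were called higher (Fkbp5 and Per1) and 0 lower, beside 5.65% and 6.82%. In late-symptomatic polysomal RNA 2 were called higher (Fkbp5 and Tsc22d3) and 0 lower, beside 5.35% and 5.38%. The medians of the 8 log2 fold changes in the same order were 0.32, 0.05, 0.25 and 0.10, beside medians of all tested genes of 0.01, 0, -0.01 and 0. The counts at day 5 rest on 2 mice per genotype, and on leaving out 1 library they ranged from 0 to 5 in total RNA and from 0 to 3 in polysomal RNA. None of the 8 genes had an adjusted p under 0.05 in a single stage and fraction.

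**Figure D3:**
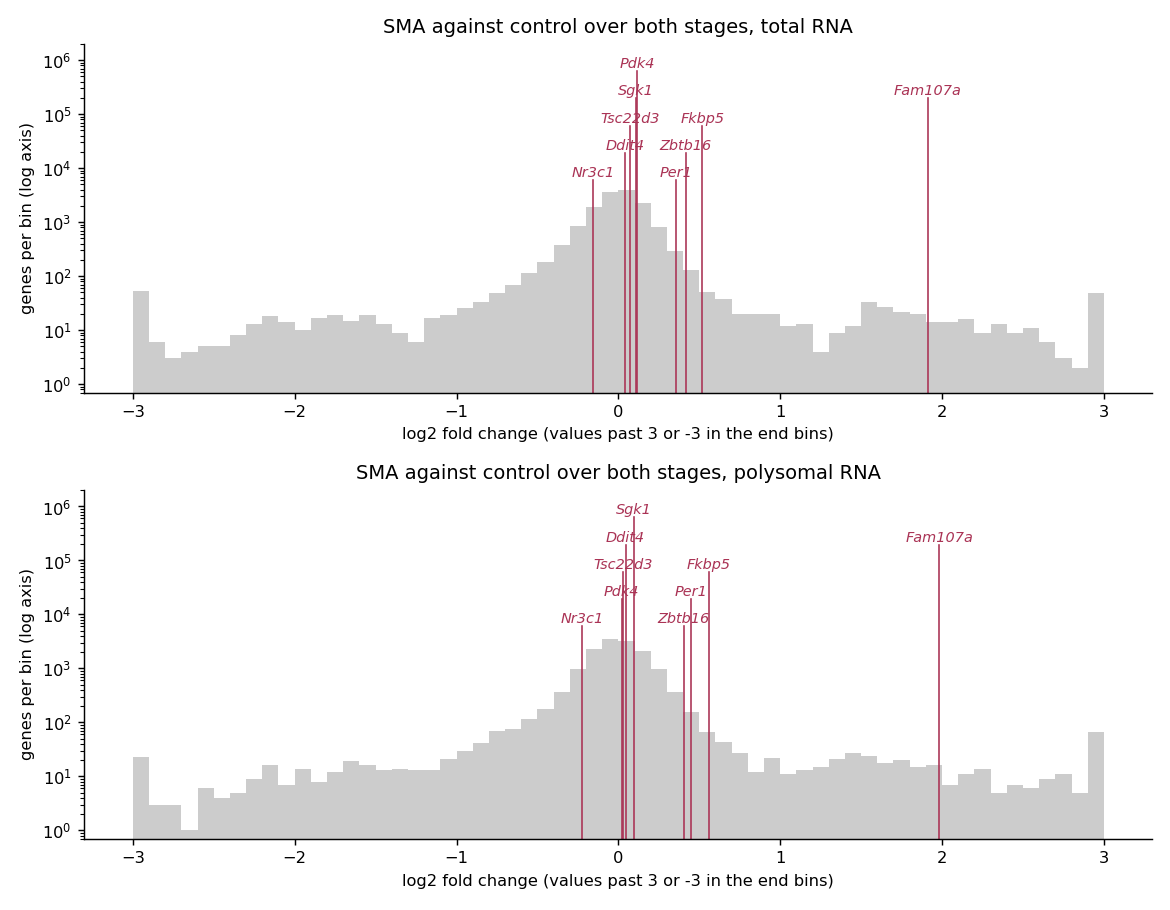
Number of tested genes per bin of log2 fold change of SMA over control with stage in the model (x axis, bins of 0.1, y axis logarithmic), in total RNA above and polysomal RNA below; red lines mark the 9 genes, and their height only separates the names. Fam107a lies at 1.91 and 1.98, and Fkbp5, Zbtb16 and Per1 lie between 0.36 and 0.56, while the other 5 genes lie between -0.22 (Nr3c1 in polysomal RNA) and 0.12.

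Genes beyond a log2 fold change of 1 over both stages numbered 299 in total RNA, of which 275 were listed at 0 in at least 1 library. Fam107a was one of the 24 that were above 0 in every library. In polysomal RNA it was one of 25 such genes out of 321. Fam107a was chosen by such changes, so its place here is a description only.

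Translation efficiency, the ratio of polysomal to total RNA, was compared between the genotypes within each stage. None of the 8 genes was called at either stage, where 2.32% (day 5) and 2.07% (day 7) of all tested genes were. The interaction for Fam107a was -0.15 (SE 0.62) at day 5 and 0.21 (SE 0.43) at day 7. For Fkbp5 it was 0.17 (SE 0.17) and -0.05 (SE 0.18). The difference of the genotype effect between stages was called for 1 of the 8 genes in total RNA (Per1), beside 10.1% of all tested genes, and for 2 in polysomal RNA (Per1 and Tsc22d3), beside 13.7%. For Fam107a the stage difference was -0.47 (SE 0.30) in total RNA and -0.11 (SE 0.66) in polysomal RNA.

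The 2 ages were also compared in the control libraries. The control values of Fam107a entered the fold changes that chose it, so its differences between control libraries are given as a description with no test. From day 5 to day 7 in control total RNA 5 of the 8 other genes were called higher and 1 lower, where 20.1% of all tested genes were called higher and 20.1% lower. Fam107a went up with age by 1.35 (SE 0.15), from a mean of 1.40 ± 0.0566 FPKM (SD, n = 2) to 3.74 ± 0.51 FPKM (SD, n = 3). Per1 rose by 0.95 (SE 0.13, adjusted p = 0.0211), Zbtb16 by 0.61 (SE 0.11, adjusted p = 0.0302) and Ddit4 by 0.49 (SE 0.08, adjusted p = 0.0291). Sgk1 (0.25) and Pdk4 (0.48) were called with adjusted p-values of 0.0688 and 0.117. The Pdk4 call held in 6 of 16 alternative settings. It ended with a pseudocount of 0.01, with either wider filter, in 1 model over all libraries and with the replicate block, and without early-symptomatic control replicate 1 (0.55) or 2 (0.41) or late-symptomatic control replicate 2 (0.50) or 3 (0.35). Tsc22d3 fell by 0.25 (SE 0.05, adjusted p = 0.0444). Without early-symptomatic control replicate 2 neither Sgk1 (0.19) nor Tsc22d3 (-0.24) was called. With the replicate block and length correction together Tsc22d3 was not called either (-0.18). Fkbp5 (-0.28, SE 0.15) and Nr3c1 (0.35, SE 0.17) were not called, though each was without late-symptomatic control replicate 3 (-0.41 and 0.47). Fkbp5 was also called with the replicate block, with or without the length correction (-0.38 and -0.41). Nr3c1 was also called in 1 model over all libraries (0.35) and with the replicate block and length correction together (0.42). The day 5 SMA level of Fam107a (6.37 and 7.18 FPKM in total RNA) was above that of every day 7 control library, of which the highest was at 4.07 FPKM.

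In control polysomal RNA 6 of the 8 other genes were called higher from day 5 to day 7 and 1 lower, beside 20.7% and 21.4% of all tested genes. Per1 rose by 1.44 (SE 0.19, adjusted p = 0.0232), Zbtb16 by 0.99 (SE 0.17, adjusted p = 0.0321) and Pdk4 by 0.50 (SE 0.08, adjusted p = 0.0277), and Tsc22d3 fell by 0.64 (SE 0.08, adjusted p = 0.0227). The Pdk4 call ended in 1 model over all libraries and with the replicate block and length correction together. Sgk1, Ddit4 and Nr3c1 were called higher with adjusted p-values of 0.109, 0.103 and 0.0962, in 10, 9 and 10 of 16 alternative settings. The calls of Sgk1 and Nr3c1 ended without any one of early-symptomatic control replicates 1 and 2 and late-symptomatic control replicates 1 and 2, at changes of 0.28 to 0.47 and 0.29 to 0.41. That of Ddit4 ended without early-symptomatic control replicate 1 or any late-symptomatic control, at 0.23 to 0.46. Fkbp5 was not called at a change of 0.19 (SE 0.07, adjusted p = 0.126), with the ages apart, and was called in 4 of 16 alternative settings; its change in total RNA had the opposite sign. Fam107a had a change of 0.93 (SE 0.42), with the 2 early-symptomatic controls at 1.08 and 2.68 FPKM. Without early-symptomatic control replicate 2, the higher of them, the change was 1.55, and without replicate 1 it was 0.31. Leaving out single control libraries moved the number called among the 8 genes between 3 and 7 in total RNA and between 4 and 6 in polysomal RNA, with 3 left in total RNA without early-symptomatic control replicate 2 and 4 in polysomal RNA without early-symptomatic control replicate 1 or late-symptomatic control replicate 1 or 2.

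Between the fractions of control brains the share of the 8 other genes that was called was close to that of all tested genes. At day 5 2 of 8 were called, beside 25.9% of all tested genes: Tsc22d3 was higher on polysomes by 0.46 (SE 0.09, adjusted p = 0.128) and Zbtb16 lower by a log2 change of -0.29 (SE 0.09, adjusted p = 0.189). At day 7 2 of 8 were called, beside 25.3%: Fkbp5 was higher by 0.33 (SE 0.12, adjusted p = 0.179) and Ddit4 by 0.25 (SE 0.08, adjusted p = 0.147). Both day 7 calls ended without control replicate 1 or 2 (0.29 and 0.27 for Fkbp5, 0.24 and 0.27 for Ddit4), and 8 of 11 alternative settings did not call Zbtb16, the replicate block among them, which left 1 gene called at day 5 and 2 at day 7. Fam107a had a difference of 0.27 (SE 0.49) at day 5 and of -0.14 (SE 0.18) at day 7.

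A wider list of 32 other genes that glucocorticoids induce in various tissues was counted next, and 27 of them were tested. It was chosen with earlier results of these data known, so its counts beside those of all genes are not an independent test. Over both stages 11 were called higher and 1 lower in total RNA, and 11 higher and 0 lower in polysomal RNA, beside the shares of all genes given above. With adjusted p under 0.05 these were 5 and 6 genes, where 0.623% and 0.794% of all tested genes passed. The median log2 fold change of the list was 0.12 in both fractions, beside 0.01 and 0 for all tested genes, and 24 of the 27 changes were above 0 in total RNA and 23 in polysomal RNA. The genes not called numbered 15 and 16, and known targets such as Klf9 (a log2 fold change of 0.05 in total RNA), Nfkbia (0.01), Dusp1 (0.12) and Errfi1 (0.01), chosen for mention after their values were seen, were among them in total RNA.

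Sult1a1, a sulfotransferase of phenols and catecholamines, changed most among the genes of the list named by rule. In early-symptomatic total RNA it was at 1.54 and 1.67 FPKM in controls and at 4.12 and 7.04 FPKM in SMA mice, and in late-symptomatic total RNA at 2.2, 1.65 and 2.01 FPKM against 5.84, 6.02 and 5.35 FPKM. Polysomal RNA held 2.07 and 2.22 against 6.25 and 7.77 FPKM at day 5, and 2.25, 1.54 and 1.94 against 7.75, 6.89 and 7.56 FPKM at day 7. The genotypes were far apart in all 4 comparisons. Over both stages Sult1a1 rose by 1.58 in total RNA (SE 0.15, adjusted p = 0.00361) and by 1.81 in polysomal RNA (adjusted p = 0.00161). Hif3a, a hypoxia-inducible factor of the alpha family, was between 0.38 and 0.92 FPKM in control total libraries and between 1.23 and 2.1 FPKM in SMA ones. It passed the filter on low values only through the SMA libraries, so its difference is given with no test. Without it 10 of 26 genes of the list were called higher in each fraction. Mertk, a receptor kinase by which glia clear debris, rose by 0.79 (SE 0.10, adjusted p = 0.0182), from between 2.15 and 2.74 FPKM in control total RNA to between 3.62 and 5.19 FPKM in SMA mice. Cdkn1a, the cell cycle inhibitor p21 that is also induced by p53, rose by 0.58 (adjusted p = 0.0243), Glul, the glutamine synthetase of astrocytes, by 0.46 (adjusted p = 0.0271) and Klf15, a transcription factor of amino acid metabolism, by 0.43 (adjusted p = 0.0443). Cables1, a cyclin-dependent kinase partner, rose by 0.16 (adjusted p = 0.241). Tgm2, a transglutaminase, fell by 0.66 in total RNA (SE 0.24, adjusted p = 0.287) and had a change of 0.12 in polysomal RNA (adjusted p = 0.837). These 7 higher genes, Hif3a included, and Tgm2 were named by the rule of a call and no overlap of the genotypes in total RNA. No other gene of the list was without overlap within either stage there. This pattern was held by 3.04% of all tested genes upward and 2.69% downward in total RNA. In polysomal RNA 9 genes of the list were apart upward and 0 downward, beside 3.22% and 3.45%. Without Hif3a the genes apart upward numbered 6 in total and 8 in polysomal RNA. Mt1 and Mt2, the metallothionein genes, were among these 9, at log2 fold changes of 1.27 (adjusted p = 0.0115) and 1.42 (adjusted p = 0.0177), while in total RNA an early-symptomatic SMA library with 42.6 FPKM of Mt1 lay within the control range.

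**Figure D4:**
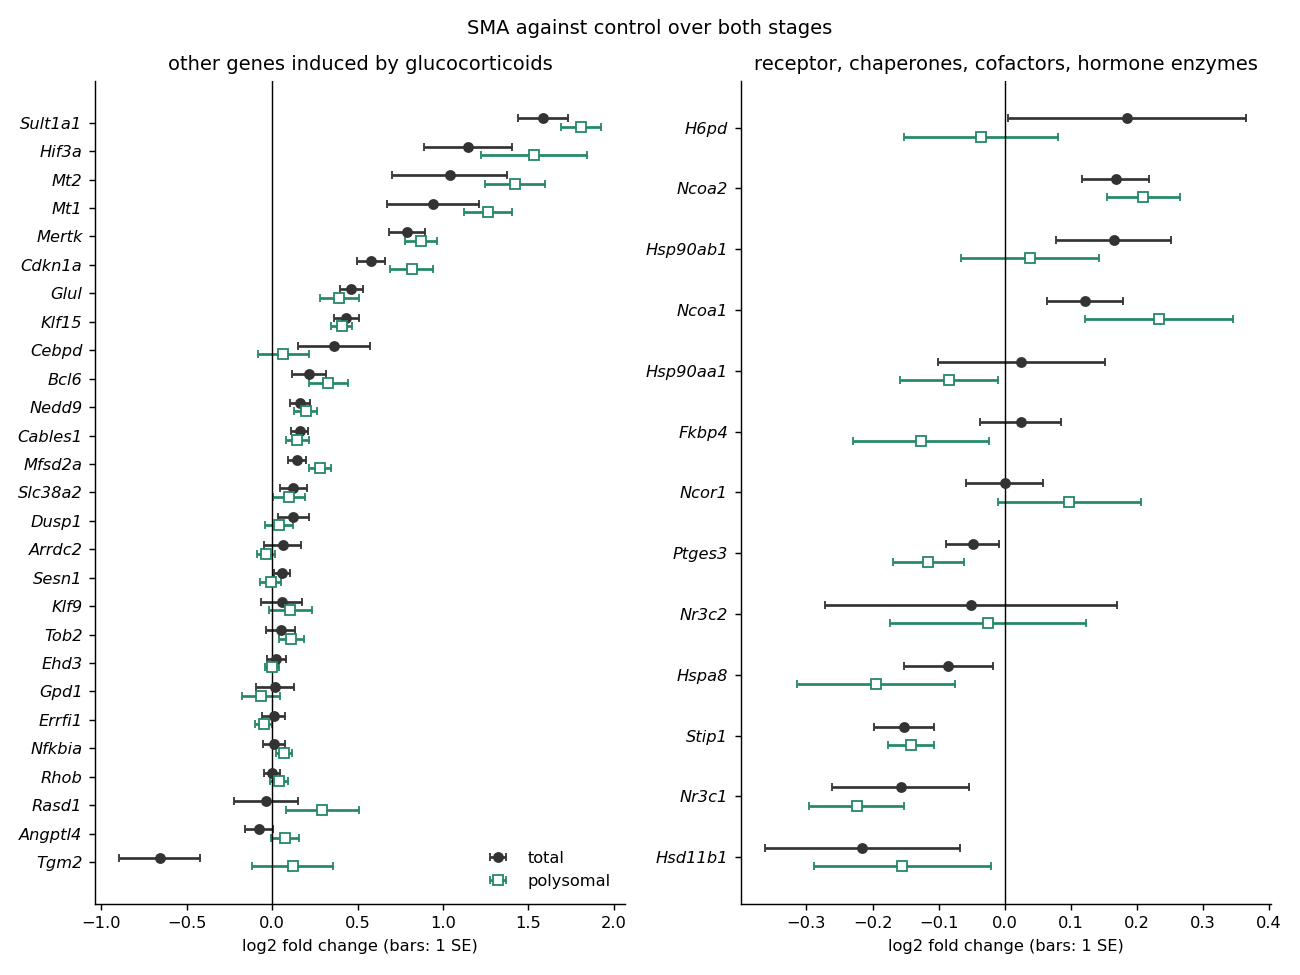
Log2 fold change of SMA over control with stage in the model (x axis, bars 1 SE) for the 27 tested genes of the wider list of induced genes (left) and the 13 tested genes of receptor function (right); black circles are total RNA and green squares polysomal RNA. Sult1a1 lies highest at 1.58 and 1.81, and the genes of the right panel, whose axis is narrower, lie within 0.25 of 0.

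By stage, the 26 genes of the list other than Hif3a had 4 called higher and 0 lower in early-symptomatic total RNA (all tested genes: 4.36% and 3.89%), 7 and 1 in late-symptomatic total RNA (4.84% and 4.7%), 6 and 0 in early-symptomatic polysomal RNA (5.65% and 6.82%) and 9 and 0 in late-symptomatic polysomal RNA (5.35% and 5.38%). The summed level of the whole list was between 408 and 410 FPKM in early-symptomatic control total libraries against 462 and 604 FPKM in SMA ones, and between 541 and 608 FPKM in late-symptomatic controls against 900 to 939 FPKM in SMA mice. Glul (a mean of 179 FPKM over all libraries) and Mt1 (168 FPKM) made up most of this sum.

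The genes of hormone handling and receptor function were called in total RNA about as often as all tested genes. Of 14 such genes 13 were tested, and in total RNA 1 was called higher and 1 lower over both stages, beside 6.95% and 6.36% of all tested genes, while 6 of the 13 log2 fold changes were above 0 and 7 below. Stip1, which links Hsp70 to Hsp90, fell by 0.15 (SE 0.05, adjusted p = 0.208) with the genotypes apart. Nr3c2, the mineralocorticoid receptor gene, was not called (-0.05, SE 0.22). Hsd11b1, the enzyme that regenerates active hormone, was not called at a log2 fold change of -0.22 (adjusted p = 0.565), and Hsd11b2, the enzyme that inactivates it, had a mean of 0.542 FPKM and was not tested. In polysomal RNA 1 gene of this list was called higher and 2 lower, of which Nr3c1 was one, beside 7.88% and 8.3%. Of 7 genes of the hypothalamic and pituitary stress axis 5 were tested and 1 was called, the corticotropin-releasing hormone receptor gene Crhr1, which fell by 0.25 (SE 0.06, adjusted p = 0.144) in total RNA.

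Per1 and Pdk4 also belong to circadian and fasting programmes, so the other genes of these were counted. Of 14 other clock genes 4 were called higher and 0 lower in total RNA and 2 and 0 in polysomal RNA, with medians of 0.05 and 0.06, where 6.95% and 7.88% of all tested genes were called higher. Per2, the paralog of Per1, was the only one of them without overlap in total RNA (0.67, SE 0.25, adjusted p = 0.305), and its polysomal change was -0.06. Of 15 genes of fasting metabolism 4 were called higher and 0 lower in total RNA and 4 and 1 in polysomal RNA, with medians of 0.08 and 0.16, beside the same shares. Foxo1, Foxo3 and Fbxo32, which act in the response to low insulin, rose in total RNA by 0.25, 0.21 and 0.21, with adjusted p-values of 0.216, 0.231 and 0.281.

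The 5 genes whose 4 log2 fold changes lay nearest to those of Fam107a were found among 14334 genes above 0 FPKM in every library, by the root mean square difference. They were Sult1a1 (0.337), the angiotensinogen gene Agt (0.589), S100a8 (0.608), Hif3a (0.639) and S100a9 (0.772). The ranking used the fold changes that chose Fam107a, so it is a description with no test. Sult1a1 belongs to the wider list above, as does Hif3a, which passed the filter only through the SMA libraries. S100a8 and S100a9 encode the calprotectin of neutrophils. Agt, which astrocytes express, was between 7.62 and 12.4 FPKM in the control total libraries of both stages and between 16.3 and 41.5 FPKM in the SMA ones. S100a8 was most abundant in late-symptomatic SMA replicate 1, at 21.8 FPKM in total and 28.3 FPKM in polysomal RNA, the replicate that was also highest for Fam107a. With a pseudocount of 1 the nearest genes were Sult1a1, Agt, S100a8, Apod and Mt2, 3 of them shared with the first set.

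Markers of cell types moved along with these genes, and their part in the changes was not tested. The counts below stand beside 6.95% of all tested genes called higher and 6.36% lower in total RNA, and 7.88% and 8.3% in polysomal RNA. Of 14 astrocyte markers, all tested and above 0 in every library, 6 were called higher and 0 lower in total RNA, with a median log2 fold change of 0.20. In polysomal RNA 4 were called higher and 1 lower, with a median of 0.21. Aldoc, the most abundant at a mean of 169 FPKM, rose by 0.67 in total RNA (adjusted p = 0.0229), Gjb6, a gap junction gene, by 0.96 (adjusted p = 0.026) and Fgfr3 by 0.49 (adjusted p = 0.00512). Aqp4 (-0.23), the marker Aldh1l1 (0.07) and Sox9 (-0.05) were not called in total RNA, so the list did not move as one. The summed level of the 14 markers was 585 and 669 FPKM in early-symptomatic control total libraries and 762 and 816 FPKM in SMA ones. At day 7 it was 723, 802 and 745 FPKM in controls and 1080, 923 and 862 FPKM in SMA mice. Polysomal sums were 872 and 793 against 851 and 997 FPKM at day 5, where the genotypes overlapped, and 960, 927 and 857 against 1290, 1180 and 1050 FPKM at day 7. The sums were not tested against the levels of Fam107a. Late-symptomatic SMA replicate 1 had the highest sum in both fractions, as it had for Fam107a. Among late-symptomatic SMA mice it was also highest in both fractions for summed markers of choroid plexus, oligodendrocytes, their precursors, microglia and red blood cells. For neuron markers it was lowest in both fractions. Sums of radial glia, endothelial and pericyte markers were not highest in this replicate in both fractions.

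Of 7 radial glia markers 0 were called higher and 1 lower in each fraction, and Fabp7, the most abundant at a mean of 1150 FPKM, fell by 0.64 in total RNA (adjusted p = 0.0366). Of 7 endothelial markers 6 were called lower in each fraction, with medians of -0.57 and -0.60, and Cldn5, the most abundant at 33.2 FPKM, fell by 1.17 on the log2 scale in total RNA (adjusted p = 0.00248). All 4 pericyte markers were called lower in each fraction, led by Rgs5, which was the most abundant at 26.5 FPKM and fell by 1.09 in total RNA (adjusted p = 0.00216). The summed endothelial markers were 84.6 and 77.6 FPKM in early-symptomatic control total RNA against 42.6 and 40.4 FPKM in SMA mice, and 56.0, 63.1 and 70.0 FPKM at day 7 against 40.7, 43.7 and 39.6 FPKM. The vascular markers that were called over both stages were thus lower. Ly6c1, an endothelial marker, was not called at 0.14 in total and 0.09 in polysomal RNA. In late-symptomatic total RNA alone 1 endothelial marker was called higher and 6 lower, beside 4.84% and 4.7% of all tested genes.

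**Figure D5:**
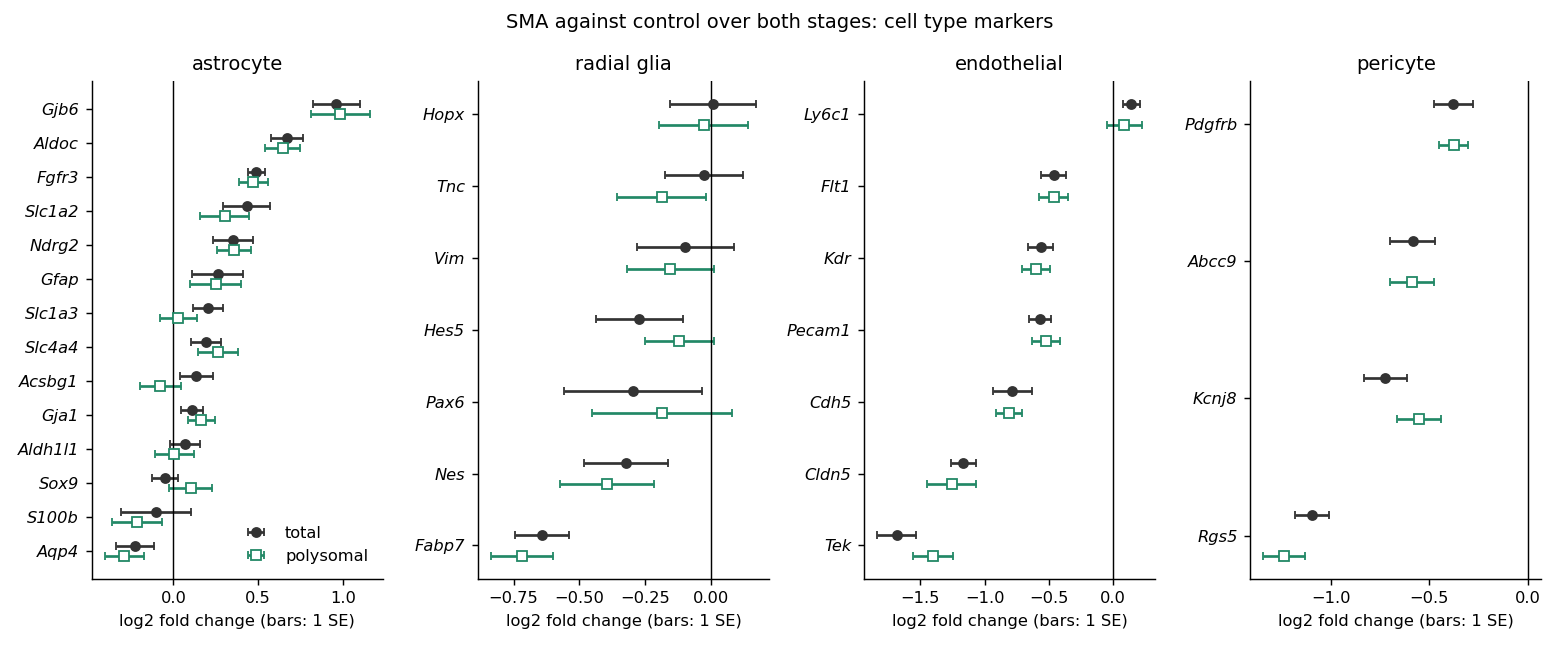
Log2 fold change of SMA over control with stage in the model (x axes, bars 1 SE, each panel with its own range) for markers of astrocytes, radial glia, endothelial cells and pericytes; black circles are total RNA and green squares polysomal RNA. Astrocyte markers spread from -0.23 (Aqp4) to 0.96 (Gjb6) in total RNA, and all endothelial and pericyte markers except Ly6c1 lie below 0.

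Choroid plexus markers moved with stage. Of 4 such genes 3 were tested, Ttr, Folr1 and Aqp1, and over both stages 2 were called higher in each fraction. At day 5 none of the 3 was called in either fraction by limma at an unadjusted p under 0.05. At day 7 all 3 were called higher in both fractions, beside 4.84% of all tested genes in total and 5.35% in polysomal RNA. Their median log2 fold changes at day 7 were 0.69 and 0.83. The summed level at day 7 was 406, 405 and 376 FPKM in control total RNA against 816, 728 and 638 FPKM in SMA mice, and 581, 523 and 468 against 1110, 1000 and 834 FPKM in polysomal RNA. At day 5 the sums of the genotypes overlapped in both fractions. Ttr, the transthyretin gene and the most abundant at a mean of 710 FPKM, had a change over both stages of 0.37 in total RNA, not called, and rose by 0.55 in polysomal RNA (adjusted p = 0.219).

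Other cell types were counted in the same way. In total RNA 1 of 8 neuron markers was called higher and 0 lower, the dendrite protein gene Map2 (0.21, adjusted p = 0.187). Stmn2, their most abundant gene at a mean of 1180 FPKM, was at -0.11 and not called, and Tubb3 was listed at 0 in both early-symptomatic control polysomal libraries. None of 6 oligodendrocyte markers was called, with Mbp the most abundant at 143 FPKM, and of 4 markers of oligodendrocyte precursors 2 were called higher and 2 lower. Of 5 microglia markers 1 was called higher, the most abundant gene C1qa (0.45, adjusted p = 0.153), and 1 lower. Of 5 genes of red blood cells 0 were called higher and 2 lower, and Hba-a1, the most abundant at 1330 FPKM, was at -0.13 and not called.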

How the data were processed

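The authors prepared libraries with the TruSeq Stranded Total RNA kit, aligned reads to GRCm38.p4 with TopHat 2.0.14 guided by Gencode M6, and ran Cufflinks 2.2.1, which gave the FPKM values deposited for 45700 genes in 20 libraries. The raw reads were not analysed here. All columns were matched to samples by their labels, and coordinates are given 1-based.

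With R 4.3.3 and limma 3.58.1, log2(FPKM + 0.1) was fitted with lmFit and eBayes with a trend for 15247 genes whose mean reached 1 FPKM. Genotypes were compared per stage and fraction, over both stages with stage as a covariate, and by interactions of genotype with fraction or stage. The threshold was an unadjusted p under 0.05, with Benjamini-Hochberg adjustment over all tested genes. The fits were tested on simulated data. Nothing in the labels says that replicates came from separate litters, so p-values measure only the spread between these mice.

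The 9 genes and all lists were chosen with earlier results of these data known. A few list genes are not reported here and were left out of the counts of their lists; the wider list of induced genes lost none. Fam107a was not tested in any comparison, since its control values entered its choice. Named list genes had an unadjusted p under 0.05 and no overlap of the genotypes over both stages in total RNA, at most 8 per list and direction, plus Hsd11b1, Hsd11b2, Nr3c2 and the most abundant gene of each cell type list; genes named outside this rule were chosen after their values were seen. Alternatives were pseudocounts, filters, scaling, no trend, 1 model over all libraries and a correction for transcript length (lowess, span 0.3). Further ones were the replicate number as a block and leaving out each library. In fits over both fractions both libraries of a replicate were left out together. Sex as a covariate, and every alternative for the wider list, were added after seeing the data.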

Additional observations from a re-analysis of the deposited data

Results flagged for a closer look

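The change of Per1 in SMA brains differed between the stages in both fractions, by -0.7397 on the log2 scale in total RNA (adjusted p = 0.486) and by -0.7186 in polysomal RNA (adjusted p = 0.322), with the larger rise at day 5. The change of Tsc22d3 differed in polysomal RNA only by 0.3931 (adjusted p = 0.261), with lower SMA values at day 5 and higher ones at day 7. These 3 interactions of genotype and stage were called by limma at an unadjusted p under 0.05, and none had an adjusted p under 0.05. They are 1 of 8 genes in total RNA and 2 of 8 in polysomal RNA, beside 10.1% and 13.7% of all tested genes.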

How the results depend on the processing

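Of the log2 fold changes of the 8 tested genes under the alternatives, 1716 kept their direction and their side of the threshold, 82 lost a call, 38 gained one, and 75 changed sign without being called in either setting. Of the untested ones of Fam107a 226 kept their direction and 8 changed sign, all in the interactions with fraction or stage. Another 5 kept their direction but moved by more than the SE of the main fold change times the square root of 2. With a pseudocount of 1 they were 1.69 in early-symptomatic total RNA, 1.59 over both stages and 0.98 for age in control total RNA, and for age in control polysomal RNA they were 0.31 and 1.55 without early-symptomatic control replicate 1 and 2. The one call with the opposite sign was the stage difference of Ddit4 in total RNA, which ranged from -0.34 without early-symptomatic SMA replicate 1 to 0.33 without replicate 2. The number of the 8 genes called in late-symptomatic total RNA fell from 2 to 1 with the replicate block, with or without the length correction. The number called between the fractions of controls fell from 2 to 1 at day 5 with a pseudocount of 0.01, a filter at a mean of 0.1 FPKM, rescaling to equal medians, the length correction, or the replicate block with or without it, and from 2 to 1 at day 7 with quantile normalization or 1 model over all libraries. Leaving out 1 library each in turn gave 0 to 5 called genes in early-symptomatic total RNA, 0 to 2 in late-symptomatic total RNA, 0 to 3 in early-symptomatic polysomal RNA, 1 to 3 and 1 to 4 for the stage difference in total and polysomal RNA, 0 to 3 between the fractions of day 7 controls, and 3 to 7 and 4 to 6 for age in control total and polysomal RNA. Between the fractions of controls each step took out both libraries of a replicate and not 1. At day 5 this would have left no residual degrees of freedom, so it was not run.

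Over all tested genes, correlations between the deviations of same-numbered libraries from their group means were between -0.0902 and 0.109, and the labels name no shared animal, so the numbers were not taken as pairs. Both libraries of each of the 10 replicates had the same sex, however. In late-symptomatic SMA mice summed oligodendrocyte markers were at 444, 384 and 235 FPKM in total and 522, 444 and 256 FPKM in polysomal RNA. Late-symptomatic controls were at 153, 379 and 385 FPKM against 178, 451 and 407 FPKM, so these sums varied alike in both fractions. Whether the brain was shared remains unknown, so the fits between fractions are given with and without the replicate block. With the block 0 of the 8 genes were called for translation efficiency at either stage, as without it. Under the replicate block Per1 was not called over both stages in total RNA (change 0.36), nor Zbtb16 in late-symptomatic total RNA (change 0.29). With sex as a covariate Fkbp5, Zbtb16 and Per1 were called over both stages in both fractions, and Nr3c1 in polysomal RNA. Because the table holds FPKM without counts, the counting error of low genes such as Pdk4, Hif3a and Zbtb16 is unknown.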
